A study of Homo sapiens with 6 samples.

Results

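The hnRNP, PCBP and RBM proteins bind RNA and shape its splicing, transport and decay, and their own transcripts are also alternatively spliced. In the table of cassette exon events, 172 of 24725 events lay in 48 genes of these families (of 7969 genes in all). Members were chosen by gene symbol alone: symbols starting with HNRNP, HNRP or PCBP, or with RBM followed by a digit, leaving out RBM9, the older symbol of a Fox family gene. None of the 172 events passed the study's criteria for a splicing change in cells expressing RBM47, and none passed limma, a test over the 6 samples, after adjustment. Among the 46 events of intermediate inclusion, 4 had an unadjusted limma p under 0.05 (8.70%, against 12.0% of all such events). In 7 the groups did not overlap (15.2%, against 17.9%). The 3 events with both lay in PCBP2 (2 events with the same outer ends) and HNRPDL. There mean inclusion was higher in the RBM47 samples by 0.0720 to 0.148. The share of all events with both was not counted.

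RNA was sequenced from a brain metastatic derivative of MDA-MB-231 (MDA231-BrM2a), a human breast cancer cell line with mesenchymal features. In 3 control samples the cells were not clonal and carried the empty pRetroX-Tight-Pur vector. In 3 RBM47 samples the cells were 1 clone (wt#10) carrying the same vector with Flag-tagged, wild-type RBM47 under a doxycycline-inducible promoter. All 6 samples received 10 ng/ml doxycycline for 3 days, so the effect of RBM47, of the clone and of the vector insert cannot be told apart. The labels do not say whether the replicates were separate cultures, so p-values measure the spread between these samples, which may be technical. In bulk RNA, a change in the mixture of cells cannot be told apart from a change within each cell.

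A cassette exon can be kept in the mature transcript or left out of it, and the inclusion rate is the fraction of transcripts, estimated from junction reads, that include it. RBM47 holds RNA recognition motifs and is close in sequence to A1CF, SYNCRIP and HNRNPR. The hnRNP proteins coat nascent transcripts, the PCBP proteins bind C-rich stretches through KH domains, and the RBM proteins are a mixed set named for an RNA-binding motif, among them parts and partners of the spliceosome. Many RNA-binding proteins hold a "poison" exon, whose inclusion leads to nonsense-mediated decay of the transcript.

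RBM47, A1CF, RBM46 and DND1 had 0 events in the table, so expression of the transgene could not be checked here. As for the cell line, VIM (7 events), CD44 (16 events) and MSN (2 events) were in the table. Of the epithelial, fibroblast and leukocyte markers, ESRP2 had 1 event with 67 reads and CDH1, EPCAM, ESRP1, KRT18, KRT19, ESR1, GATA3, COL1A1, COL1A2, DCN and PTPRC had 0, as did CAV1, and a gene without an event in the table is not shown to be silent. Member events had 50 to 36302 reads over both groups, with a median of 1869 against 664 over all events. Depth per sample is unknown because read counts were deposited only as group totals. RBM47 replicate 2 stood apart, with 10.9% of its rates over the 46 member events of intermediate inclusion exactly at 0 or 1, while the other 5 samples had 0.00% to 4.35%.

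Of the 172 events, 68 could be placed on 1 annotated exon of GRCh37 by the gene and the span between the outer ends. The exons shown here are a chosen part of those on which events below were placed in this way. Capitals mark the cassette exon, with 20 intron bases before it and 8 after it in lower case, and every one of them starts after ag and ends before gt. The first set is PCBP2, on the plus strand, where the exon of 39 bases lies at chr12:53861589-53861627, the exon of 93 bases at chr12:53858544-53858636 and the exon of 42 bases at chr12:53859716-53859757. All 3 are coding exons with lengths that are multiples of 3, so skipping keeps the reading frame.
PCBP2 exon of 39 bases: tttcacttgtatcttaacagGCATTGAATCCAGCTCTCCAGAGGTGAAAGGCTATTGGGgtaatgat
PCBP2 exon of 93 bases: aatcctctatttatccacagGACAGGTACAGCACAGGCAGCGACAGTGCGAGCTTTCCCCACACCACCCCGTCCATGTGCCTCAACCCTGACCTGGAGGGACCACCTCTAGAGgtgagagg
PCBP2 exon of 42 bases: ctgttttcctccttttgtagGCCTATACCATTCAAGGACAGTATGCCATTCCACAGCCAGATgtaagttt

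HNRNPD, HNRNPAB and HNRPDL are related proteins that bind AU-rich RNA, and each table entry held a cassette exon coding for a stretch near the C terminus. These exons are shown because they are counterparts with different inclusion rates. The HNRNPD exon (147 bases, minus strand) lies at chr4:83277690-83277836, the HNRNPAB exon (141 bases, plus strand) at chr5:177637133-177637273 and the HNRPDL exon (171 bases, minus strand, annotated under the newer symbol HNRNPDL) at chr4:83347616-83347786. In a global alignment the HNRNPD exon was 61.5% identical to that of HNRPDL and 59.6% to that of HNRNPAB, and the exons of HNRNPAB and HNRPDL were 53.8% identical. All 3 lengths are multiples of 3.
HNRNPD exon of 147 bases: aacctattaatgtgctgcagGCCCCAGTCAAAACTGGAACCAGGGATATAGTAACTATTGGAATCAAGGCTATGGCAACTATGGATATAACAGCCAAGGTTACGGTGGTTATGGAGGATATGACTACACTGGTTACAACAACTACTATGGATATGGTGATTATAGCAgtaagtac
HNRNPAB exon of 141 bases: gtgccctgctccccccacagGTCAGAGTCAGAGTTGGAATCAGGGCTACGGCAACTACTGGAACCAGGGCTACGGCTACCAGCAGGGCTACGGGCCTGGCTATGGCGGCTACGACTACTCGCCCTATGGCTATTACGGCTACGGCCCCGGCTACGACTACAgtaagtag
HNRPDL exon of 171 bases: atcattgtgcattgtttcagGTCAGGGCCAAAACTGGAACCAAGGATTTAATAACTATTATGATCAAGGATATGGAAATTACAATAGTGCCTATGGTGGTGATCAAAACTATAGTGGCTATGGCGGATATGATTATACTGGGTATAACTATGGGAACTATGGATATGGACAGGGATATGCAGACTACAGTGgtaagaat

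HNRNPH1 and HNRNPH3, which bind G-rich RNA, hold cassette exons of the same length, 139 bases, that were 90.6% identical, at chr5:179046270-179046408 (minus strand) and chr10:70097615-70097753 (plus strand). That length is not a multiple of 3, so skipping shifts the reading frame. The HNRNPA2B1 exon of 36 bases (chr7:26237451-26237486, minus strand) separates the A2 form from the longer B1 form, and the RBM26 exon of 72 bases lies at chr13:79927288-79927359 (minus strand).
HNRNPH1 exon of 139 bases: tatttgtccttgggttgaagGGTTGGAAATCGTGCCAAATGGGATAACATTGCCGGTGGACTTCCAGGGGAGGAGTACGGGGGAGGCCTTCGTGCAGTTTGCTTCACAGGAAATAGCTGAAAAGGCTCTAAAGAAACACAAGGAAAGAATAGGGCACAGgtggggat
HNRNPH3 exon of 139 bases: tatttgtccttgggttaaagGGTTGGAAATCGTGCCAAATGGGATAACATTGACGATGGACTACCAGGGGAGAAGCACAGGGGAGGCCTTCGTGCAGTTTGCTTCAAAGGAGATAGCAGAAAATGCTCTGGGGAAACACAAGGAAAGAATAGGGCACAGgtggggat
HNRNPA2B1 exon of 36 bases: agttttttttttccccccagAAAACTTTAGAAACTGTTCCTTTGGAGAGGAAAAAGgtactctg
RBM26 exon of 72 bases: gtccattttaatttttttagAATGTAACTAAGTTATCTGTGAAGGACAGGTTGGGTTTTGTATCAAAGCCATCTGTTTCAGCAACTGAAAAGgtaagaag

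Most exons of these genes were included, or skipped, in nearly all transcripts of both groups. In 93 of the 172 events (54.1%) the mean rate over both groups was above 0.9, in 33 (19.2%) it was below 0.1, and in 46 (26.7%), spread over 27 genes, it was intermediate (0.1 to 0.9). Over all 24708 events with rates the intermediate share was 24.3%. The difference in mean rate, RBM47 minus control, ran from -0.0272 to 0.0560 in the nearly constitutive events, from -0.0242 to 0.0207 in the nearly skipped events and from -0.185 to 0.278 in the intermediate events. Among intermediate events the median size of the difference was 0.0381 for members and 0.0597 for all 6000 such events, and with at least 1000 reads it was 0.0310 (28 events) and 0.0360 (1470 events). Placed exons were counted once for each pair of outer ends, so that some, such as the PCBP2 exon of 42 bases, count more than once. In this count a length that is a multiple of 3 was found in 13 of 19 intermediate, 21 of 35 nearly constitutive and 0 of 6 nearly skipped member exons. Over all placed exons the shares were 55.2%, 42.9% and 44.9%.

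**Figure D1:**
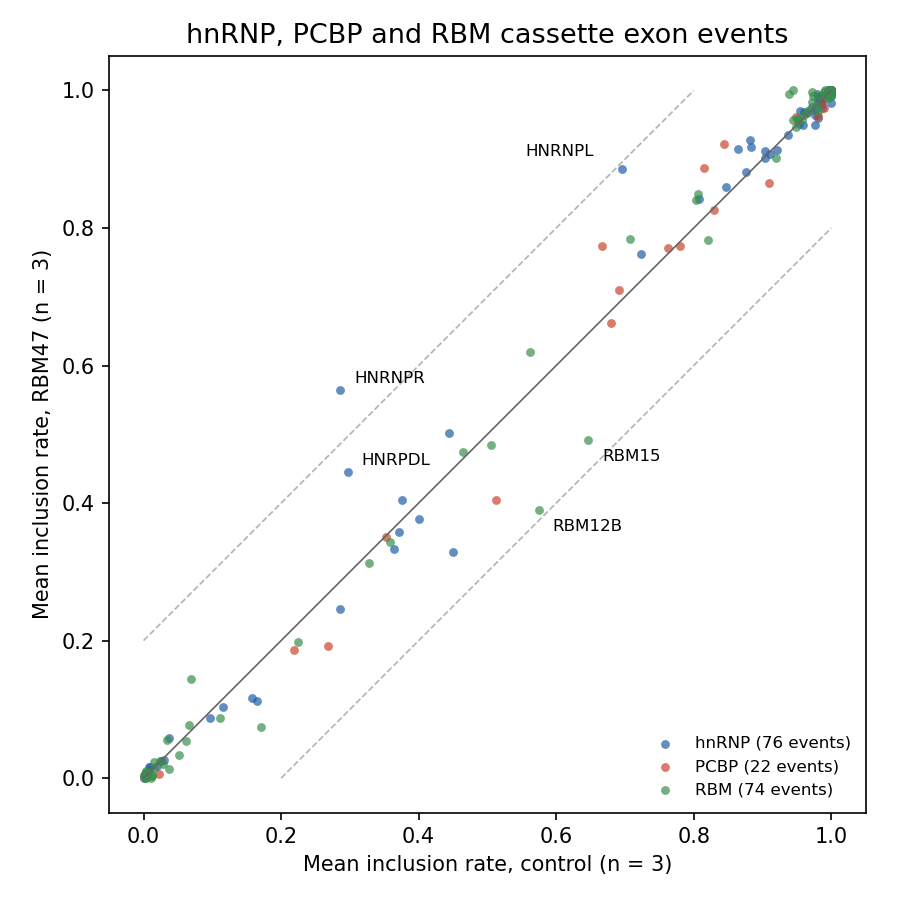
Mean inclusion rate of each of the 172 member events in control samples (horizontal axis, fraction, n = 3) and RBM47 samples (vertical axis, fraction, n = 3), with hnRNP events in blue, PCBP events in red and RBM events in green. The solid line marks equal rates and the dashed lines a difference of 0.2, and 1 event, in HNRNPR, lies outside them.

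The study's criteria were 10 or more reads, an unadjusted Fisher's exact p of at most 0.05 on the read totals and mean rates at least 0.2 apart. No member event met them (0 of 172), where 1.41% of all events did. That test does not see the replicates, so limma was run on the 6 rates of each event with intermediate inclusion. Of 46 member events, 0 had a limma adjusted p under 0.05, against 2.23% of all 6000 events, and 0 also had a difference of at least 0.2, against 1.53%. At an unadjusted limma p under 0.05 there were 4 member events, all with higher inclusion in RBM47 samples, against a background of 12.0% (5.35% higher and 6.67% lower). In 7 of 46 member events the 3 rates of one group lay wholly above those of the other (5 higher and 2 lower with RBM47), where the background was 17.9% (7.85% higher and 10.0% lower). The difference was at least 0.1 in size in 8 of 46, against 30.7% of all events, at unlike depth (median 1746 against 401 reads).

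Intervals show what size of change these data leave room for. The 95% interval of the difference, from limma on untransformed rates, lay within 0.2 of no difference in 30 of 46 member events (43.2% of all events) and within 0.1 in 15 (10.8%). The variance trend follows reads, and the median was 1746 reads for these member events and 401 for all such events. Shares at like depth were not counted. The intervals of the other 16 reached past 0.2, so a change of the size the criteria ask for is within what these data allow in those events. HNRNPA1 had the widest interval, from -0.738 to 0.677, on 91 reads. HNRNPA1, HNRNPA1L2 and HNRNPA1P10 are near-identical copies whose reads can be shared, so their values are uncertain. The 2 events under the symbol HNRNPA1P10 (chr12:52963861-52964929, rates of 1 in all samples) lie beside the HNRNPA1 event (chr12:52961436-52962350). Whether they are exons of HNRNPA1 itself was not tested. The readthrough entries HNRNPUL2-BSCL2 and RBM14-RBM4 share sequence with their parent genes.

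**Figure D2:**
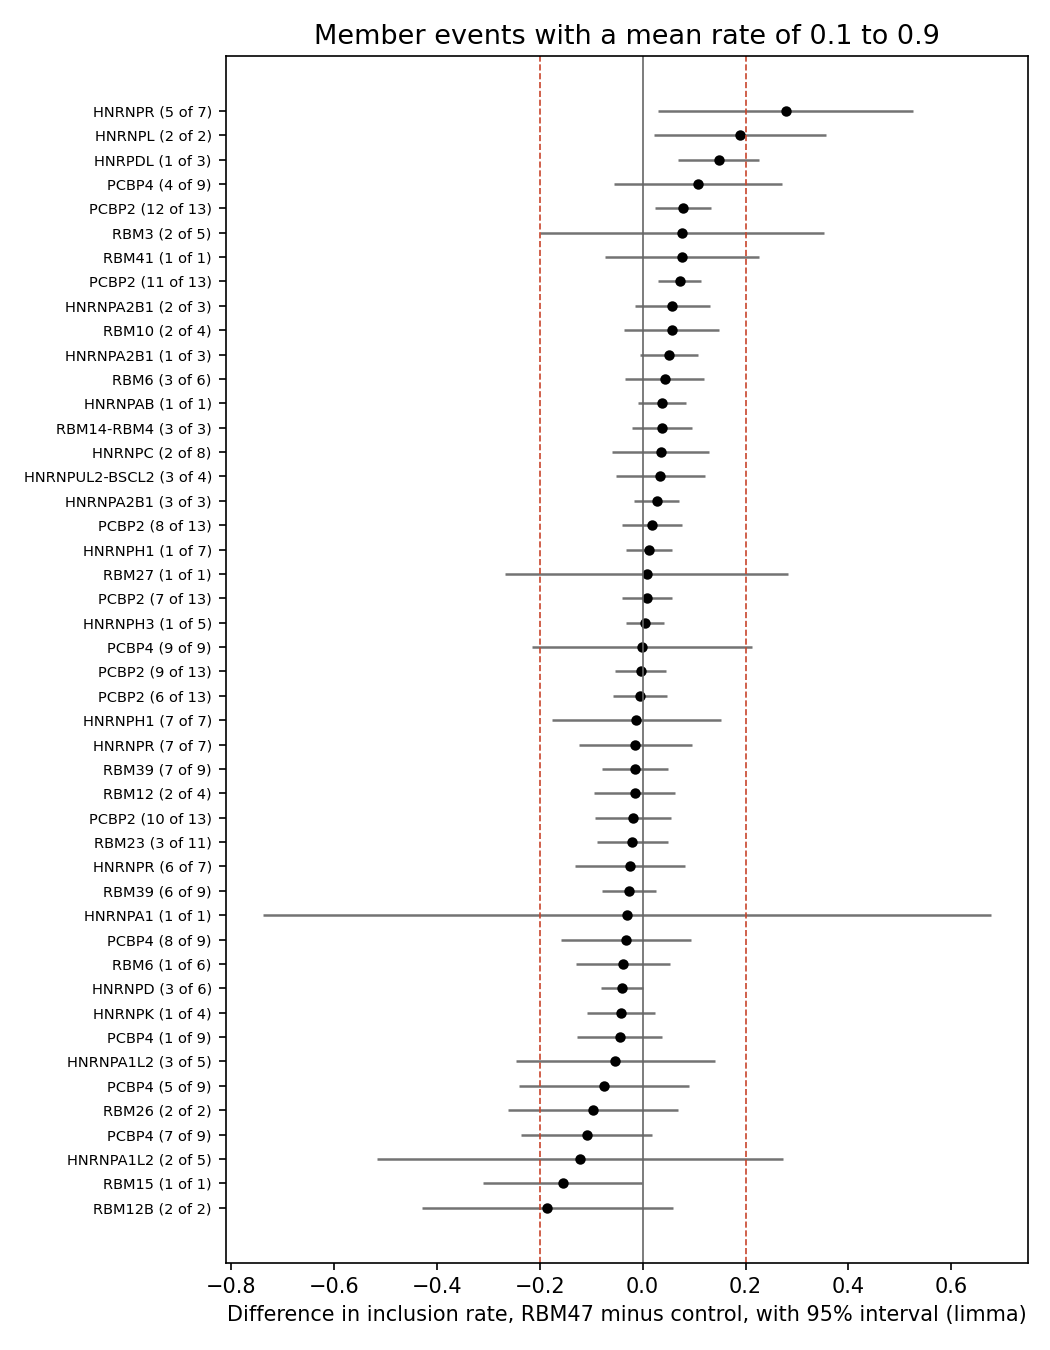
Difference in inclusion rate, RBM47 minus control (horizontal axis, fraction), for the 46 member events of intermediate inclusion, ordered by size, with numbers in brackets giving the event's place along the gene by coordinate. Points are differences of the means (n = 3 samples a group) and bars are 95% intervals from limma, 30 of which stay between the dashed lines at -0.2 and 0.2.

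PCBP2, a KH-domain protein that binds poly(C) in messenger RNA and viral RNA, had 13 events, the most of any member gene. For 2 events with the same outer ends (chr12:52147271-52148882 in the table's coordinates, whose build the table does not name), gene and span fitted only the exon of 39 bases. Their control reads differ (3188 and 4259 including, 318 and 373 skipping), so the span does not settle which exon each event measured. In the first event the rates were 0.829, 0.811 and 0.806 in control and 0.872, 0.898 and 0.893 in RBM47 samples. In the second they were 0.813, 0.887 and 0.831 in control and 0.923, 0.949 and 0.895 in RBM47 samples. Every RBM47 sample was above every control sample in both events. The differences were 0.0720 (95% interval 0.0300 to 0.114, limma adjusted p = 0.0734) and 0.0789 (0.0242 to 0.134, limma adjusted p = 0.157). By Fisher's exact test on the read totals (7524 and 10040 reads), adjusted p was 5.10e-07 and 2.29e-14. The 2 events share reads and are not independent, and leaving out any sample kept their differences between 0.0635 and 0.101.

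The other PCBP2 events moved less than the spread between samples. In the 5 events placed on the exons of 93 and 42 bases (events 6 to 10 along the gene, each with 4328 to 8952 reads), mean rates lay between 0.662 and 0.829 and differences between -0.0180 and 0.0183. Events 7 and 8, both placed on the exon of 42 bases, had equal skipping reads but 2812 and 1997 including reads in control. The span does not settle which exon each of them measured. In the event placed on the exon of 93 bases, control samples were at 0.789, 0.770 and 0.779 and RBM47 samples at 0.798, 0.726 and 0.797, a difference of -0.00559 (95% interval -0.0584 to 0.0472). RBM47 replicate 2 was the lowest sample there, and without it the difference was 0.0183. The 3 events nearest the start of the gene had mean rates of 0.999 or above in both groups. Whether the 2 events placed on the exon of 39 bases differed from their neighbours in response was not tested.

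**Figure D3:**
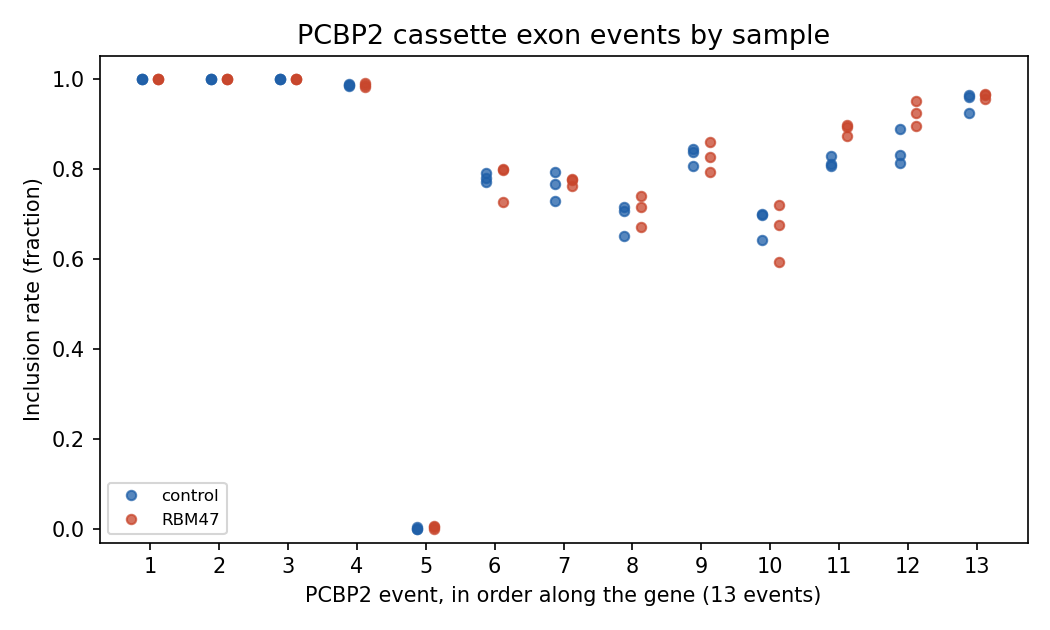
Inclusion rate (vertical axis, fraction) of each sample in the 13 PCBP2 events in order of coordinate (horizontal axis), with control samples in blue and RBM47 samples in red (3 points a group). In events 11 and 12, placed by span on the exon of 39 bases, all RBM47 samples lie above all control samples, and in events 6 to 10 the groups overlap.

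PCBP4, a relative of PCBP2 linked to growth arrest, had 9 events on 183 to 1344 reads, and 6 were tested. An event at chr3:51970215-51976500 had rates of 0.485, 0.490 and 0.563 in control and 0.410, 0.333 and 0.468 in RBM47 samples, all below the controls. Its difference was -0.109 (95% interval -0.236 to 0.0182, limma adjusted p = 0.579), on 414 reads. A second event, at chr3:51970215-51971947, was at 0.667 in all 3 control samples and at 0.632, 0.833 and 0.857 in RBM47 samples, a difference of 0.107 (-0.0556 to 0.270). The rates of this event overlapped, and the difference was 0.179 without RBM47 replicate 1 and 0.0658 without RBM47 replicate 3. Over the 13 tested PCBP events, 5 had a higher and 8 a lower mean rate in RBM47 samples, with a median difference of -0.00378.

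Among hnRNP genes, 76 events in 20 genes were listed and 19 in 13 genes were tested. Their differences ran from -0.122 to 0.278 with a median of 0.0125, 11 higher and 8 lower. The lowest was in HNRNPA1L2, on 61 reads, and it was 0.0426 without RBM47 replicate 2. Among intermediate hnRNP events, HNRPDL had the lowest limma p. Its event nearest the 3′ end (chr4:83564804-83566305) had rates of 0.312, 0.277 and 0.302 in control and 0.524, 0.439 and 0.371 in RBM47 samples. Every RBM47 sample was above the controls, and the RBM47 samples were spread more widely (SD 0.0766 against 0.0180). The difference was 0.148 (95% interval 0.0696 to 0.226, limma adjusted p = 0.102), and the including share of the read totals was 67.9% in control and 74.4% in RBM47 samples (4542 reads, Fisher's exact adjusted p = 1.16e-04). Leaving out 1 sample gave 0.108 to 0.185, with adjusted p from 0.0521 to 0.295. The exon of 171 bases beside it was near constitutive, at 0.972 in control and 0.975 in RBM47 samples.

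HNRNPD, also known as AUF1, binds AU-rich elements and takes part in the decay of messenger RNA. Its exon of 147 bases was skipped in most transcripts, unlike its HNRPDL counterpart. Rates were 0.304, 0.272 and 0.280 in control and 0.241, 0.234 and 0.262 in RBM47 samples, without overlap. The difference was -0.0400 (95% interval -0.0801 to 7.82e-05, limma adjusted p = 0.463; Fisher's exact adjusted p = 0.0717 on 19633 reads). At the 3′ end of HNRNPD, 2 events with the same outer ends (chr4:83494005-83495577) were nearly skipped, and there the groups did not overlap in the other direction. One was at 0.00944, 0.00887 and 0.009996 in control and at 0.0166, 0.0146 and 0.0157 in RBM47 samples, and limma over events of all mean rates gave it an adjusted p of 0.0534. The other had means of 0.00733 and 0.0121 (adjusted p = 0.453).

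HNRNPAB, whose product is known from RNA transport and editing complexes, had the third counterpart exon, of 141 bases. Rates were 0.696, 0.725 and 0.749 in control and 0.767, 0.779 and 0.739 in RBM47 samples. The groups overlapped, and the difference was 0.0384 (95% interval -0.00825 to 0.0850, limma adjusted p = 0.545). In the read totals the including share was 85.2% and 88.1% (11208 reads, Fisher's exact adjusted p = 3.85e-04). The 3 related exons differed from each other in level (0.972, 0.723 and 0.286 in control samples for HNRPDL, HNRNPAB and HNRNPD) by more than any of them differed between the groups.

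HNRNPA2B1, an abundant hnRNP that binds and sorts messenger RNA and microRNA, had the most deeply read member event. The exon of 36 bases that makes the B1 form had rates of 0.349, 0.394 and 0.386 in control and 0.381, 0.421 and 0.409 in RBM47 samples on 36302 reads. The groups overlapped, with a difference of 0.0277 (95% interval -0.0162 to 0.0715, limma adjusted p = 0.679). The including share of the totals was 54.8% and 57.9%, and with so many reads Fisher's exact adjusted p was 6.07e-07. The gene's other 2 events also had a higher mean in RBM47 samples, from 0.864 to 0.915 (95% interval of the difference -0.00577 to 0.108) and from 0.444 to 0.501 (-0.0153 to 0.130), with overlapping groups. In the last of these the including share of the totals was 97.1% and 97.3% (Fisher's exact p = 0.552), and leaving out 1 sample moved the difference of 0.0574 between 0.0307 (control replicate 2) and 0.0990 (control replicate 3).

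HNRNPH1 and HNRNPH3 showed how near-identical exons can differ in use. The exon of 139 bases had a mean rate of 1.00 in both groups in HNRNPH1 (17788 reads), and at 0.877 ± 0.00579 and 0.882 ± 0.00425 (SD, n = 3) in HNRNPH3 (13323 reads), where the difference was 0.00528 (95% interval -0.0318 to 0.0424, limma adjusted p = 0.924). Of the HNRNPH1 events, the one nearest the 3′ end (chr5:178974413-178975824, 21402 reads) had means of 0.846 and 0.859, a difference of 0.0125 (-0.0316 to 0.0566). A nearly skipped HNRNPH1 exon of 134 bases, at chr5:179048844-179048977 and annotated only in transcripts marked for nonsense-mediated decay, had rates of 0.00751, 0.00926 and 0.00740 in control and 0.0161, 0.0165 and 0.0144 in RBM47 samples. The groups did not overlap, and limma over all mean rates gave an adjusted p of 0.0739. The read totals went the other way, with an including share of 23.7% in control and 14.8% in RBM47 samples (Fisher's exact adjusted p = 4.13e-19), so no direction is given for this exon. It was the 1 member of 19 with a Fisher's exact adjusted p under 0.05 whose totals and rates moved opposite ways. Over all events, 16 of the 1309 with such an adjusted p did so, or 0.0648% of all events tested, and the member share on that scale is 0.581%.

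HNRNPL, which binds CA-rich RNA and controls a decay-linked exon in its own transcript, had 1 tested event. By gene and span it was placed on an exon of 70 bases (chr19:39332253-39332322) annotated only in transcripts marked for nonsense-mediated decay. Rates were 0.804, 0.692 and 0.591 in control and 0.739, 1 and 0.917 in RBM47 samples. RBM47 replicate 1 lay within the control range, so the groups overlapped. The difference was 0.190 (95% interval 0.0225 to 0.357, limma adjusted p = 0.374), and 0.132 without RBM47 replicate 2. The including share of the totals was 94.3% and 97.2% (605 reads, Fisher's exact p = 0.107). Skipping reads were few, 18 in control and 8 in RBM47 samples, and the gene's other event had 3844 reads. The rate therefore holds for junctions of this event and is not the share of all HNRNPL transcripts that carry the exon.

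HNRNPK, which like the PCBP proteins binds poly(C) through KH domains, had an event at chr9:85778020-85779323 with rates of 0.178, 0.127 and 0.169 in control and 0.0849, 0.0859 and 0.177 in RBM47 samples. Of the RBM47 samples, replicates 1 and 2 lay below the controls and replicate 3 within them. The difference was -0.0422 (95% interval -0.109 to 0.0242, limma adjusted p = 0.589), -0.0727 without RBM47 replicate 3, and -0.0266 and -0.0271 without RBM47 replicates 1 and 2. The including share of the totals was 27.2% and 20.7% (Fisher's exact adjusted p = 1.03e-04).

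HNRNPR, the member closest to RBM47 in sequence with SYNCRIP, had 7 events, 3 of them tested. Its event at chr1:23536833-23537687, named here after its values were seen, had the highest difference of any member event. Rates were 0.429, 0.167 and 0.263 in control and 0.556, 0.636 and 0.500 in RBM47 samples, without overlap. The difference was 0.278 (95% interval 0.0298 to 0.526, limma adjusted p = 0.472), on 114 reads, and the read totals gave 65.2% and 73.3% (Fisher's exact p = 0.414). It was the 1 member event of 46 with a difference of at least 0.2, where the background was 11.0%. The other 2 tested HNRNPR events share outer ends, had 1917 and 1821 reads, and differed by -0.0238 (-0.131 to 0.0832) and -0.0142 (-0.124 to 0.0961). Both turned direction when control replicate 1 (0.0142 and 0.0221) or RBM47 replicate 1 (0.0203 and 0.0322) was left out. SYNCRIP, which the symbol rule leaves out, had 4 events. Of the 11 events of the 2 genes, 0 passed the study's criteria, where the background was 1.41%. Of the 6 that were tested, 0 had an adjusted and 0 an unadjusted limma p under 0.05, against 2.23% and 12.0%. At these shares, 0 of 11 and 0 of 6 are near the background.

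**Figure D4:**
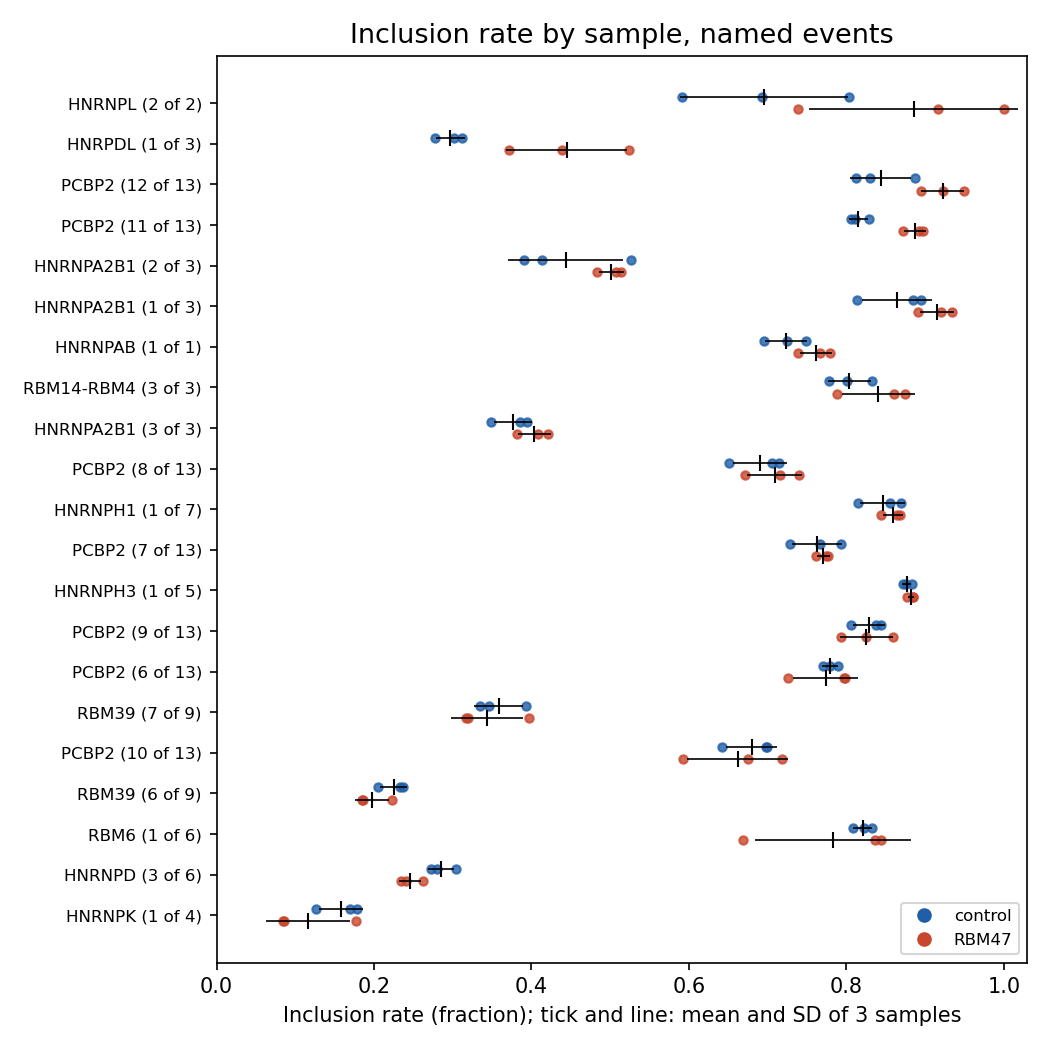
Inclusion rate (horizontal axis, fraction) of each sample in the 21 events named by reads or by an unadjusted limma p under 0.05, control in blue and RBM47 in red, with a tick at the mean and a line of 1 SD to each side (n = 3). The groups are apart in HNRPDL (1 of 3), PCBP2 (11 of 13 and 12 of 13) and HNRNPD (3 of 6), and overlap in the others.

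Further hnRNP events were mostly near constitutive or nearly skipped. HNRNPUL1 had 3 events with shared outer ends (chr19:46501888-46504760) in which all RBM47 samples were below all control samples. In the event of lowest inclusion the rates were 0.979, 0.968 and 0.982 in control and 0.953, 0.944 and 0.951 in RBM47 samples (limma over all mean rates, adjusted p = 0.233). HNRNPC, which coats uridine tracts, had 8 events, and in a nearly skipped one (chr14:20771951-20801334) the means were 0.00398 and 0.00662 without overlap (adjusted p = 0.268). Its 1 intermediate event had means of 0.807 and 0.842, a difference of 0.0349 (95% interval -0.0594 to 0.129). HNRNPU, a scaffold protein of nuclear RNA, had 1 event, at 0.981 and 0.991. HNRNPM, a regulator of splicing in mesenchymal cells, had an exon of 54 bases at 0.903 in control and 0.902 in RBM47 samples on 14606 reads. Counted over all mean rates, groups did not overlap in 20 of 172 member events (13 higher and 7 lower), against a background of 9.93% (4.68% and 5.25%), and 17 had an unadjusted limma p under 0.05, against 7.18% of all events, with 0 at an adjusted p under 0.05.

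Of the RBM genes, 26 had 74 events and 14 events in 12 genes were tested. Differences ran from -0.185 to 0.0770 with a median of -0.0149, 6 higher and 8 lower, and 0 of the 14 had an unadjusted limma p under 0.05, against a background of 12.0%. RBM39, a splicing coactivator related to U2AF2, had 9 events, and the mean rate was lower in RBM47 samples in all 9, with differences from -0.0269 to -0.000146. How often all events of a gene went 1 way in the whole table was not counted. In the event at chr20:33790303-33791932 the rates were 0.237, 0.233 and 0.205 in control and 0.186, 0.185 and 0.223 in RBM47 samples, with overlap. The difference was -0.0269 (95% interval -0.0791 to 0.0253, limma adjusted p = 0.697), and the including share of the totals was 78.2% and 72.8% (Fisher's exact adjusted p = 0.0162). A neighbouring event with the same start (chr20:33790303-33792222) had means of 0.358 and 0.344 (difference -0.0143, -0.0785 to 0.0499), and without control replicate 2 its difference was 0.00320. In the event at chr20:33758455-33760609 the means were 0.0121 and 0.00337, and the including share of the totals was 25.2% and 17.1% (Fisher's exact adjusted p = 7.14e-05). Events of RBM39 overlap each other, so these values are not independent.

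RBM26, an RNA-binding protein of nuclear RNA decay, had the only RBM event in which read totals differed by more than 0.2. Its exon of 72 bases had rates of 0.160, 0.274 and 0.0787 in control and 0.0385, 0.167 and 0.0192 in RBM47 samples, with overlap. The difference was -0.0962 (95% interval -0.261 to 0.0689, limma adjusted p = 0.596), and -0.0448 without control replicate 2. The including reads were 69 of 209 in control (33.0%) and 11 of 102 in RBM47 samples (10.8%), with a Fisher's exact adjusted p of 6.95e-04. RBM27, its close relative, had 1 event with means of 0.465 and 0.474 and an interval from -0.266 to 0.283. These and the RBM genes that follow, except RBM6 and RBM14-RBM4, were named after their values were seen.

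RBM15, an adaptor of the methyltransferase that places N6-methyladenosine, had 1 event (chr1:110683480-110690817) with rates of 0.579, 0.721 and 0.640 in control and 0.640, 0.511 and 0.324 in RBM47 samples. The groups overlapped, and RBM47 replicate 3 was the lowest sample. The difference was -0.155 (95% interval -0.310 to -2.49e-04, limma adjusted p = 0.460), and -0.0711 without that sample. The including share of the totals was 96.9% and 95.4%, a difference of -0.0150 as a rate (Fisher's exact p = 0.0968). RBM12B had rates of 0.444, 0.697 and 0.583 in control and 0.462, 0.333 and 0.375 in RBM47 samples, a difference of -0.185 (-0.429 to 0.0595) on 115 reads. RBM41, a protein linked to the minor spliceosome, had rates of 0.0690, 0.0652 and 0.0714 in control and 0.171, 0.115 and 0.147 in RBM47 samples, all above the controls. Its difference was 0.0760 (-0.0734 to 0.225, limma adjusted p = 0.627), on 238 reads, with 12.8% and 25.7% of the totals including the exon (Fisher's exact adjusted p = 0.149).

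The splicing regulators RBM5, RBM6 and RBM10 are related, and events were listed for RBM6 and RBM10. The RBM10 exon of 231 bases (chrX:47030427-47030657) had rates of 0.518, 0.565 and 0.606 in control and 0.600, 0.600 and 0.659 in RBM47 samples, a difference of 0.0569 (95% interval -0.0352 to 0.149, limma adjusted p = 0.690). The RBM6 event with the most reads (chr3:49975012-49984584) had rates of 0.822, 0.808 and 0.832 in control and 0.843, 0.669 and 0.836 in RBM47 samples. Of its 7742 reads, 35 in control and 50 in RBM47 samples were skipping reads, and the including totals hold reads that the rates do not. RBM47 replicate 2 was far below the other 5 samples, and without it the difference changed from -0.0379 to 0.0191. RBM23, a close relative of RBM39, had 11 events, and its exon of 48 bases (chr14:23377542-23377589) was at 0.505 in control and 0.485 in RBM47 samples (difference -0.0199, -0.0888 to 0.0489). In RBM23, 2 near-constitutive events with the same outer ends did not overlap between groups, the first at 0.922, 0.972 and 0.920 in control and 1, 1 and 0.982 in RBM47 samples (limma over all mean rates, adjusted p = 0.464). The readthrough entry RBM14-RBM4 had an event with means of 0.803 and 0.841 (difference 0.0372, -0.0213 to 0.0957) on 10924 reads. Of 22 listed RBM genes known as splicing regulators or partners of the spliceosome, 15 had events, and of their 53 events, 8 tested, 0 passed the study's criteria, 0 had a limma adjusted p under 0.05 and 0 an unadjusted p under 0.05, where the backgrounds were 1.41%, 2.23% and 12.0%. At 12.0%, 0 of 8 is near the background.

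Read totals gave more calls than the rates of the samples did. By Fisher's exact test, 35 of 172 member events had an unadjusted p of at most 0.05, against 14.4% of all events, and 19 had an adjusted p under 0.05, against 5.30%. This test counts reads and not samples, and member events had a median of 1869 reads against 664 over all events. Whether the shares differ at like depth was not tested. By mean rate, 11 of the 19 were higher and 8 lower (6.40% and 4.65% of the 172, against 2.59% and 2.68% of all events), in HNRNPA2B1, HNRNPAB, HNRNPD, HNRNPH1, HNRNPK, HNRNPM, HNRNPU, HNRPDL, PCBP2, RBM26 and RBM39. The size of the difference was at least 0.1 in 1 of them, HNRPDL.

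The number of reads over a gene's events also differed between groups, without replicate totals to test it. Over 46 member genes with at least 100 reads, the ratio of RBM47 to control reads ran from 0.503 in RBM12B to 1.84 in RBM11, with a median of 0.898, against 0.859 over all genes and 0.910 over all reads. It was 0.712 in HNRNPH1, 0.766 in RBM39, 0.875 in HNRPDL, 0.950 in PCBP2, 1.02 in HNRNPD and 1.25 in HNRNPL. These are junction reads of cassette exons, not expression levels. Over the 168 member events that had 30 or more reads in both groups, inclusion differed by a median of 0, with quartiles of -0.00705 and 0.00729, and the median over 22973 events of all genes was 0, with quartiles of -0.0110 and 0.0109.

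Related RNA-binding proteins, nearly all outside the symbol rule, were counted from a list of 38 genes such as RALY, KHSRP and ELAVL1, which also holds the member gene HNRPLL (2 events). Of the 38, 34 had events, and of 110 events, 29 tested, 0 were higher and 1 was lower by the study's criteria, where the background was 0.615% and 0.793%. The event was in PUF60, a splicing factor that works with U2AF2. Its rates were 0.659, 0.778 and 0.677 in control and 0.385, 0 and 0.333 in RBM47 samples, without overlap. The difference was -0.465 (95% interval -0.716 to -0.214, limma adjusted p = 0.206). Fisher's exact p was 0.0425 unadjusted and 0.314 adjusted, with 13 skipping reads in each group. RBM47 replicate 2 was at 0 in this event.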

How the data were processed

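RNA-seq libraries (polyA-selected) of 6 samples, 3 control and 3 RBM47, were grouped by their sample titles. Per the labels the submitters used TopHat, and the study's methods name STAR and hg19 for RNA-seq of the cell lines; the build of the table's coordinates is not given in the sources used here. The authors deposited 1 row per cassette exon event with inclusion rates per sample (a fraction), group averages, and read counts summed over the 3 samples of a group for the including and the skipping isoform. The authors also deposited a difference and a p-value for each row, which were not used as results. The including totals hold reads that the rates do not, so shares of totals and rates differ in level. In 1392 of 24725 rows the rates did not average to the row's group averages. Rates were matched to rows by the printed averages within 3e-09: 1122 rows by both averages and 253 by the RBM47 average, and 17 were left without rates. Of the 172 member events, 145 were aligned as deposited and 27 were matched by both averages.

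Fisher's exact test (two-sided, scipy 1.17.1) was run on the 4 totals and adjusted by the Benjamini-Hochberg method (statsmodels 0.14.6) over all 24725 events. Calls were then counted among the 24708 events with rates. It covers counting error only, and reads without molecular identifiers are not independent molecules. limma 3.58.1 (R 4.3.3) was run on rates transformed by arcsine square root, the variance trend following log2 reads, for the 6000 events with a mean rate of 0.1 to 0.9, with adjustment over all of them. Intervals came from the same fit on untransformed rates. The script was tested on simulated data. Exons were placed on GRCh37 (GENCODE, 11912 of 24725 events) where 1 exon of the gene fitted the outer span and another event within 1000000 bases had the same offset. A placed exon is a match by gene and span, not a position given in the table.

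The members, gene lists, tests and alternatives were chosen with earlier results of these data known. Named were the 20 tested member events with the most reads, those with an unadjusted limma p under 0.05 (up to 15), and any past the study's criteria or an adjusted p under 0.05; events named after their values were seen are marked or lie outside that set. Replicate numbers did not pair the samples: deviations of same-numbered samples had r of -0.0225, -0.00550 and 0.0139 over 6000 events.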

Additional observations from a re-analysis of the deposited data

How the results depend on the processing

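No member event passed the study's criteria in the main setting. With a minimum difference of 0.1 in place of 0.2, 1 was higher (HNRPDL), and with rates from summed reads, 1 was lower (RBM26). No other alternative gave a member event by these criteria or by limma: log2 odds or untransformed rates, no variance trend, all mean rates, read minimums, rows aligned as deposited only, or leaving out any sample. With the replicate block, limma gave 0 higher and 0 lower member events, and for the PCBP2 and HNRPDL events it changed no call. The 21 named events had 210 alternatives. The averages printed in the row were among them and could not differ, since rates were matched by those averages. For them and for rates from summed reads limma was not run, so only direction was compared. Limma also gave no value for the HNRNPA2B1 event at chr7:26196315-26198721 without control replicate 2. Of the 210, 197 kept direction, 0 passed the limma threshold where limma was run, and 13 turned direction. In 8 events 1 left-out sample turned it, with ranges of -0.00347 to 0.0240 for HNRNPH1 (control replicate 1), -0.0406 to 0.00320 for RBM39 (control replicate 2) and -0.0681 to 0.0191 for RBM6 (RBM47 replicate 2). For PCBP2 they were -0.00901 to 0.0231 for event 7 along the gene (control replicate 3), -0.0178 to 0.0183 for event 6 (RBM47 replicate 2), -0.00131 to 0.0373 for event 8 (control replicate 3), -0.0205 to 0.0127 for event 9 (control replicates 1 and 2 and RBM47 replicate 2) and -0.0463 to 0.0170 for event 10 (RBM47 replicate 2). Rates from summed reads turned 3 of these PCBP2 events, to 0.00314, 0.00374 and 0.00119. The largest main difference among these 8 events was 0.0379 in size. Over all 46 tested member events, 1 left-out sample turned the direction in 18, of which the largest differed by 0.122 in size (HNRNPA1L2). Where the cause of a change is not in the setting itself, it was not tested.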
